A study of Mus musculus with 2 samples.

Results

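Serine protease inhibitors of clade A, which hepatocytes secrete into the blood, were followed across liver cells of 2 single-cell libraries. The group held 10 genes, chosen by symbol: the α1-antitrypsin paralogues Serpina1a, Serpina1b, Serpina1c, Serpina1d and Serpina1e, the antichymotrypsin-type genes Serpina3k, Serpina3m and Serpina3n, and the hormone carriers Serpina6 and Serpina7. All 10 were present in both count matrices, among 32286 features that also held 30 other serpin genes.

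The DDC and cMet library pooled Sox9-CreERT2:Rosa26-mTmG mice, given DDC diet and cMet by HTVi (hydrodynamic tail vein injection) for 5 months, with WT mice on normal diet at day 0. The DDC library pooled Sox9-EGFP mice, fed DDC for 2 weeks, with WT mice on normal diet at day 0. DDC is a diet that injures the bile ducts, cMet is a receptor tyrosine kinase used here in a tumour model, and Sox9 is a transcription factor of biliary and progenitor-like cells that drives the EGFP and Cre transgenes. All mice shared the strain label C57BL/6J;129S6/SvEvTac, there were 2 mice per time, the labels give no age, and the barcodes separate neither mice nor times. Each library is therefore 1 sample, library and condition cannot be told apart, and all intervals below are 95% intervals for counting error alone.

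A serpin inhibits by offering an exposed reactive centre loop to a protease, which cuts the loop and is then trapped in a covalent complex. α1-antitrypsin, an abundant plasma protein made mainly by hepatocytes, protects tissue from neutrophil elastase. Humans have 1 such gene in SERPINA1, whereas mice carry several near-identical copies whose loops differ and with them their target proteases. The mouse Serpina3 genes are likewise expanded relative to human SERPINA3; Serpina3n is an acute-phase gene whose product inhibits granzyme B in mice. Serpina6 encodes corticosteroid-binding globulin and Serpina7 thyroxine-binding globulin, serpins that carry hormones and do not inhibit proteases.

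Since the loops of the 5 Serpina1 copies differ, their coding stretch is shown first, from the GENCODE transcripts of GRCm38 (chromosome 12). Capitals mark bases that differ from Serpina1b.
Serpina1a: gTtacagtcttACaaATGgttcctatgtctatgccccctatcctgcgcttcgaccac
Serpina1b: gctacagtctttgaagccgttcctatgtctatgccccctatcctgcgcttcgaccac
Serpina1c: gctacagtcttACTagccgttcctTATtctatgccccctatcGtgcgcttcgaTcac
Serpina1d: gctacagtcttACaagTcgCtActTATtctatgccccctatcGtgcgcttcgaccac
Serpina1e: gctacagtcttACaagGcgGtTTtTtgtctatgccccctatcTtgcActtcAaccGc
Relative to Serpina1b, 6 of these 57 bases differed in Serpina1a, 8 in Serpina1c, 9 in Serpina1d and 11 in Serpina1e. Over the whole aligned coding sequence the 5 paralogues shared 96.3% to 98.5% of bases in 10 pairs, against 55.6% to 61.4% between a Serpina1 gene and any of the other 5. The 3 Serpina3 genes shared 83.4% to 91.8%.

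Because 3′ reads sample the transcript end, the paralogues were also compared there. Of the 411 windows of 90 bases in the last 500 bases of each transcript, the share with no exact copy in another paralogue was 89.5% for Serpina1a, 96.4% for Serpina1b, 85.6% for Serpina1c, 92.5% for Serpina1d and 100% for Serpina1e. Most positions can thus tell the copies apart, but each paralogue's own count stays less certain than the sum of the 5. Gene models add to this: the Serpina1b model (chr12:103728156-103830373, minus strand) contains Serpina1d, and the Serpina3m model (chr12:104338486-104394257, plus strand) begins at the same base as Serpina3k. The sources used here do not say how reads in such overlaps were assigned.

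The 5 Serpina1 genes lie within 230820 bases of chromosome 12 on the minus strand, with Serpina6, Serpina3k, Serpina3m and Serpina3n within the same 767700 bases, while Serpina7 is on chromosome X. Promoters of 7 members were matched in RefSeq (GRCm38.p6). The Serpina1 promoters shared one uninterrupted block of 59 bases that occurred in no other of 32851 promoters, shown in capitals for Serpina1b and Serpina1c, whose shares of the family's UMIs are compared below.
Serpina1b, chr12:103738184-103738266, minus strand: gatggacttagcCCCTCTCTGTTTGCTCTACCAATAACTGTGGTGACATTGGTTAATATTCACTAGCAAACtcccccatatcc
Serpina1c, chr12:103904946-103905028, minus strand: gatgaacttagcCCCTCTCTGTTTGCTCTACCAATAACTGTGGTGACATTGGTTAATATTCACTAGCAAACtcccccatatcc
TTGCNNAA, a C/EBP core, was found on either strand in the promoters of Serpina7 and of Serpina1a, Serpina1b, Serpina1d and Serpina1e, 5 of the 7, and in 10.8% of all promoters of the same length, and TTCCNGGAA, a STAT core, in none of 7 against 1.15%. The 5 Serpina1 promoters shared 91.7% to 98.4% of bases, so matches at a shared place are not separate ones. Counted from the start site, the TTGCNNAA match lay at -161 in Serpina1b, -149 in Serpina1d and -211 in Serpina1e. In Serpina1a it lay at 25, a different place on the other side of the start site. A match describes letters in the window and is not evidence of binding.

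In the DDC and cMet library 186997180 UMIs fell on 18316 barcodes, and in the DDC library 104523363 UMIs fell on 8694; 50 barcode sequences occurred in both. A barcode was used as a cell if it reached 500 genes and 2000 UMIs and had no more than 30% mitochondrial UMIs, which gave 8099 cells in the DDC and cMet library and 2903 in the DDC library. Alb-high cells, with at least 50 albumin UMIs per 10000 and no other class's markers, numbered 5017 in the DDC and cMet library (median 22259 UMIs) and 1886 in the DDC library (median 38069.5 UMIs). Non-epithelial cells, with markers of a blood, endothelial or stromal class and less Alb, numbered 1710 and 590. The labelled cell type is hepatocyte: 9 hepatocyte markers that the choice of cells did not use, among them Ttr, Apoa1 and Cps1, summed to 325 and 272 UMIs per 10000 in Alb-high cells of the DDC and cMet library and the DDC library, against 18.4 and 19.2 in non-epithelial cells. By the choice of cells, Alb-high cells held few markers of other classes, for macrophages 1.51 and 0.934 UMIs per 10000 in all. Cells with both Alb and another class's markers, 1280 and 273, were left out.

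All 10 serpins were at least 2-fold higher in Alb-high than in non-epithelial cells of both libraries. The background was high: 18.1% of 14056 genes passed 2-fold in that direction in the DDC and cMet library and 17.6% of 13237 in the DDC library, while 40.8% and 29.4% passed it in the other direction, in which 0 members did. The members' median log2 ratio was 3.97 and 3.16 in those libraries, against -0.66 and -0.33 over all genes. Scaled to 11 abundant hepatocyte genes in place of all UMIs, a measure that free hepatocyte RNA holds near 0, Serpina3k alone stayed above 0 in the DDC and cMet library (0.07), and Serpina1c (0.13), Serpina1d (0.24), Serpina3k (0.54) and Serpina3m (0.77) did in the DDC library. Non-epithelial cells with Sox9 or EGFP UMIs were kept in these values. Levels below are UMIs per 10000 UMIs, from 3′ counts that are not divided by gene length.

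Serpina1b, an antitrypsin paralogue, stood at 40.6 UMIs per 10000 in Alb-high cells and 2.80 in non-epithelial cells of the DDC and cMet library, and at 38.0 and 4.99 in the same groups of the DDC library. In the DDC and cMet library Serpina1c stood at 43.2 and 2.75, and it stood at 25.3 and 1.78 in the DDC library. Serpina3k, which encodes a kallikrein-binding protein, stood at 32.5 and 1.68, and at 11.9 and 0.635. These were among the members at over 10 UMIs per 10000 in Alb-high cells of both libraries, with Serpina1a, whose Alb-high levels were 33.1 and 20.2. Serpina1d stood at 12.4 and 6.90 UMIs per 10000, Serpina6 at 3.87 and 1.66, Serpina3n at 2.44 and 1.86, and Serpina3m at 1.06 and 0.736 in Alb-high cells of the DDC and cMet library and the DDC library. Serpina1e, at 0.558 and 0.231, was the lowest of the Serpina1 genes in both, and Serpina7, at 0.379 and 2.75, changed its place in the order most.

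**Figure D1:**
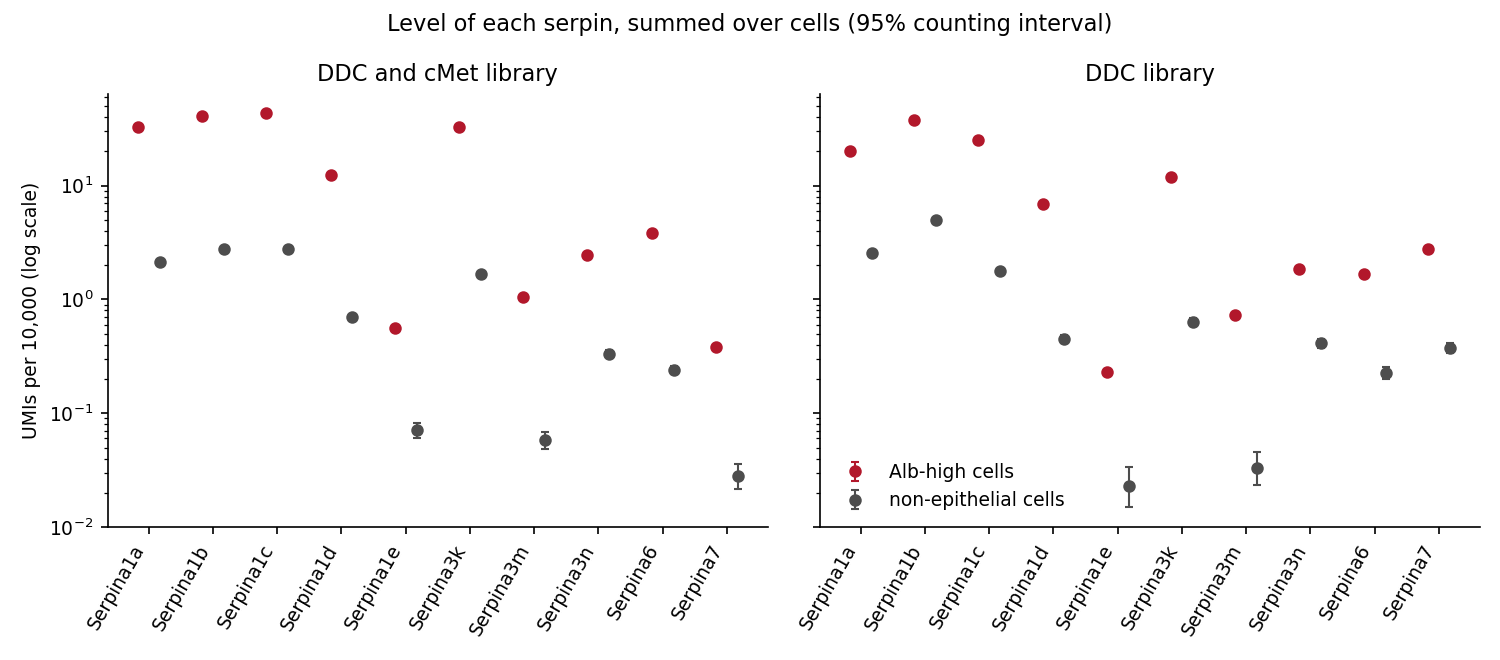
Summed level of each of the 10 serpins in UMIs per 10000 UMIs (log axis) in Alb-high cells (red) and non-epithelial cells (grey), DDC and cMet library left and DDC library right, with 95% counting intervals. Every red point lies above its grey point, and Serpina7 is the member whose Alb-high level is lower in the DDC and cMet library (0.379) than in the DDC library (2.75).

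Cells differed widely in some members. Among Alb-high cells with at least 10000 UMIs (3097 in the DDC and cMet library, 1565 in the DDC library), Serpina1c ran from 12.1 at the 10th percentile through a median of 29.5 to 104.0 at the 90th in the DDC and cMet library, and from 5.52 through 20.8 to 44.5 in the DDC library. Serpina1b was narrower, 21.9, 38.6 and 61.2 in the DDC and cMet library and 17.3, 35.0 and 57.4 in the DDC library. Serpina6 reached 89.5 UMIs per 10000 in one cell of the DDC and cMet library, where its median was 2.87. With every cell thinned to 2000 UMIs, Serpina1b was seen in 99.6% of Alb-high cells and 41.2% of non-epithelial cells of the DDC and cMet library, and in 98.5% and 42.5% in the DDC library. Serpina7 was seen in 5.64% and 0.351%, and in 29.3% and 4.07%, above the non-epithelial share in both libraries. Unthinned, those Serpina7 shares were 23.4% and 2.75%, and 75.1% and 17.6%.

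Between the libraries, 3 members were at least 2-fold higher in Alb-high cells of the DDC and cMet library, where 5.84% of 13410 genes were, and 1 was at least 2-fold lower, where 12.6% were. Serpina3k had a log2 ratio of 1.45 (1.43 to 1.46), Serpina1e of 1.27 (1.19 to 1.35) and Serpina6 of 1.22 (1.19 to 1.25). Serpina7 was 7.26-fold lower, with a log2 ratio of -2.86 (-2.91 to -2.81). The hormone carriers thus lay on opposite sides, Serpina6 higher and Serpina7 lower. Serpina1b differed little, with a log2 ratio of 0.10 that turned to -0.07 when levels were scaled to the hepatocyte genes, while Serpina1a, Serpina1c and Serpina1d had 0.71, 0.77 and 0.85. The median over the 10 members was 0.74, against -0.29 over all genes tested.

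The make-up of the Alb-high cells differed between the libraries as well. Plet1, which encodes a surface protein expressed by progenitor-like cells, had at least 2 UMIs in 548 of 5017 Alb-high cells of the DDC and cMet library and in 1138 of 1886 of the DDC library, and the 9 biliary or progenitor markers summed to 30.2 and 144 UMIs per 10000. In cells without a Plet1 UMI, 4046 and 522, only Serpina6 stayed past 2-fold higher, with a log2 ratio of 1.65. There Serpina3k had 0.84, Serpina1e 0.99, Serpina1b -0.05 and Serpina7 -2.003. The part of these markers in the library difference beyond this split was not tested.

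Plet1-positive cells (at least 2 Plet1 UMIs) showed more Serpina7 and Serpina6 and less of Serpina1a, Serpina1c, Serpina1e and the 3 Serpina3 genes than Plet1-negative cells (0 Plet1 UMIs), in both libraries. Serpina1b and Serpina1d were also lower, but turned when levels were scaled to the hepatocyte genes, to 0.09 and 0.05 on the log2 scale in the DDC and cMet library and 0.04 and 0.06 in the DDC library. Under that scaling Serpina3n kept a log2 ratio of only -0.02 for the DDC library, and Serpina3m only -0.04 for the other library. Serpina3n and Serpina3m were thus not clearly lower in those cases. In the DDC and cMet library 1 member was at least 2-fold higher, where 9.17% of 12375 genes were, and 0 at least 2-fold lower, where 2.86% were. In the DDC library the counts were 1 higher and 1 lower, against 7.21% and 2.86% of 11922 genes. The members' medians were -0.32 and -0.38, against 0.29 and 0.18 over all genes. Each library pools day 0 WT mice with treated mice. The Plet1 groups may therefore differ in diet, time and genotype, which cannot be told apart from Plet1.

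Serpina7, the thyroxine carrier, stood at 1.07 UMIs per 10000 in Plet1-positive and 0.219 in Plet1-negative cells of the DDC and cMet library, and at 3.41 and 0.877 in the DDC library. Its log2 ratios were 2.30 (2.21 to 2.38) and 1.96 (1.87 to 2.05). Under the alternatives they ran from 1.88 to 2.77 and from 1.40 to 2.59, ranges that overlap, and their difference between libraries was not tested. Among the 4 groups Serpina7 was highest in Plet1-positive cells of the DDC library and lowest in Plet1-negative cells of the DDC and cMet library. In the DDC and cMet library Serpina6, the corticosteroid carrier, stood at 5.14 and 3.58, and it stood at 1.88 and 1.14 in the DDC library. Its order therefore followed the library first and Plet1 second, with log2 ratios of 0.52 and 0.72 for Plet1.

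Serpina3k stood at 20.2 UMIs per 10000 in Plet1-positive and 35.7 in Plet1-negative cells of the DDC and cMet library, and at 9.71 and 19.9 in the DDC library, a log2 ratio of -0.82 and -1.04. Serpina1c stood at 25.4 and 48.2, and at 22.1 and 36.2, with log2 ratios of -0.92 and -0.71. Both were the members with the lowest ratios in each library, and Serpina1b had -0.13 and -0.21. Serpina1a had -0.39 and -0.49, Serpina1d -0.16 and -0.19, Serpina1e -0.55 and -0.50, Serpina3m -0.26 and -0.64 and Serpina3n -0.47 and -0.27. Plet1-positive cells were also deeper, with median UMIs of 36108.5 against 16441 in the DDC and cMet library and 43954 against 19526.5 in the DDC library, and carried more biliary or progenitor markers, 70.4 against 21.2 and 178 against 48.8 UMIs per 10000. The Serpina3k call in the DDC library sat at the edge of the 2-fold line and was lost under 4 of the alternatives, among them positivity at 1 Plet1 UMI.

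**Figure D2:**
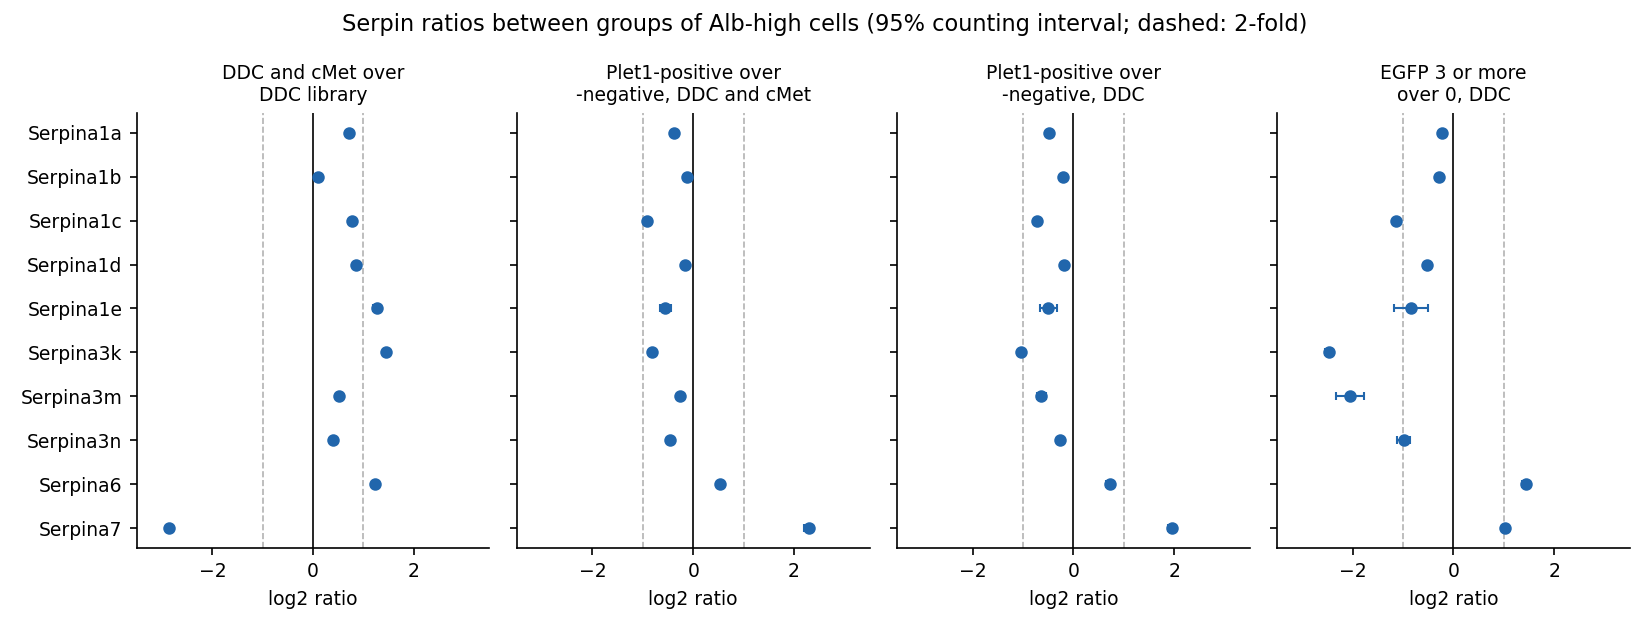
Log2 ratio of each serpin in Alb-high cells (horizontal axis; dashed lines mark 2-fold, bars the 95% counting interval) for the DDC and cMet over the DDC library, Plet1-positive over Plet1-negative cells in each library, and cells at 3 or more over 0 EGFP UMIs per 10000 in the DDC library. Serpina6 and Serpina7 lie right of 0 in the 3 right panels, the other 8 genes left of it (under scaling to hepatocyte genes Serpina1b lies right of 0 in all 3, Serpina1d in the Plet1 panels and Serpina1a in the EGFP panel), and Serpina7 lies at -2.86 in the left panel.

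The Sox9-driven reporter divided the Alb-high cells of the DDC library further. Cells were binned by EGFP UMIs per 10000: 1121 cells at 0, 435 above 0 and under 1, 206 from 1 to under 3, and 124 at 3 or more. Since WT mice carry no reporter, cells at 0 mix genotype, diet and reporter level, which cannot be told apart. Setting the highest bin against the lowest, 2 members were at least 2-fold higher, where 9.29% of 11308 genes were, and 3 at least 2-fold lower, where 5.5% were. The median UMIs per cell were 28456, 47181, 46762.5 and 50238.5 from the lowest to the highest bin.

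Serpina3k stood at 14.9, 11.2, 8.42 and 2.69 UMIs per 10000 from the lowest to the highest EGFP bin. It was lower in each bin than in the one before, and its log2 ratio between the ends was -2.47 (-2.55 to -2.40). Serpina3m, of the same gene cluster, stood at 0.858, 0.731, 0.619 and 0.207, with a log2 ratio of -2.05 (-2.33 to -1.78). Serpina1c stood at 26.7, 27.0, 24.1 and 12.1, so most of its difference lay between the 2 highest bins. Its log2 ratio was -1.14 (-1.18 to -1.11). Serpina1b stood at 38.6, 39.0, 36.8 and 31.8, and Serpina1a at 20.5, 20.6, 19.8 and 17.4, log2 ratios of -0.28 and -0.23 that turned to 0.17 and 0.22 when levels were scaled to the hepatocyte genes. The antitrypsin copies were therefore unequal across the reporter: Serpina1c was 2.21-fold lower in the highest bin than in the lowest, and Serpina1b 1.21-fold.

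Serpina6 stood at 1.22, 1.75, 2.05 and 3.32 UMIs per 10000 over the same bins, and Serpina7 at 2.22, 2.91, 3.23 and 4.52. Both carriers were higher in each successive bin, with log2 ratios of 1.44 (1.36 to 1.52) and 1.02 (0.96 to 1.09). Serpina3n had a log2 ratio of -0.98, Serpina1e of -0.84 and Serpina1d of -0.53. Under the alternatives these ran from -1.41 to -0.46, from -1.16 to -0.39 and from -0.82 to -0.08. Serpina1d was thus not clearly lower under all of them. Alb itself stood at 281, 254, 207 and 146 UMIs per 10000, and biliary or progenitor markers at 87.6, 142, 203 and 391. Their part in the serpin values was not tested. Among Plet1-positive cells alone, 102 in the highest and 545 in the lowest EGFP bin, Serpina3k had a log2 ratio of -2.37, Serpina1c -0.94, Serpina6 1.37 and Serpina7 0.69. With cells at 1 or more EGFP UMIs per 10000 set against those at 0, Serpina3k had -1.26, Serpina3m -0.89, Serpina1c -0.45, Serpina6 1.05 and Serpina7 0.74, so Serpina3k and Serpina6 alone passed 2-fold.

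A further group, with little Alb and no markers of a non-epithelial class, held 92 cells in the DDC and cMet library and 154 in the DDC library. Alb stood there at 33.4 and 32.7 UMIs per 10000, and biliary or progenitor markers at 115 and 432. Serpina1b stood at 34.1 and 23.6, against 2.80 and 4.99 in non-epithelial cells, and Serpina1a at 19.1 and 11.97, against 2.11 and 2.58. Serpina3k stood at 1.85 and 0.723, close to the 1.68 and 0.635 of non-epithelial cells. Serpina1a and Serpina1b transcripts were thus present in cells where Alb, by the choice of these cells, and Serpina3k were low. Serpina6 stood at 5.57 and 1.01, and Serpina7 at 1.73 and 4.62, both above the non-epithelial 0.240 and 0.226 for Serpina6 and 0.0280 and 0.373 for Serpina7.

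Shares within the antitrypsin family differed between these groups. Of all Serpina1a to Serpina1e UMIs in Alb-high cells, Serpina1b made up 31.3% in the DDC and cMet library and 41.9% in the DDC library, Serpina1c 33.3% and 27.9%, Serpina1a 25.5% and 22.3%, Serpina1d 9.57% and 7.62% and Serpina1e 0.429% and 0.256%. In Plet1-positive cells Serpina1c made up 25.1% and 26.2%, against 35.1% and 32.2% in Plet1-negative cells. In the cells with little Alb it made up 12.4% and 10.5%, where Serpina1b made up 48.2% and 55.8%. From the lowest to the highest EGFP bin, Serpina1c made up 28.7%, 28.6%, 27.3% and 18.3%, and Serpina1b 41.6%, 41.3%, 41.6% and 48.1%. The summed level of the 5 copies stood at 92.8, 94.2, 88.5 and 66.1 UMIs per 10000 over those bins.

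**Figure D3:**
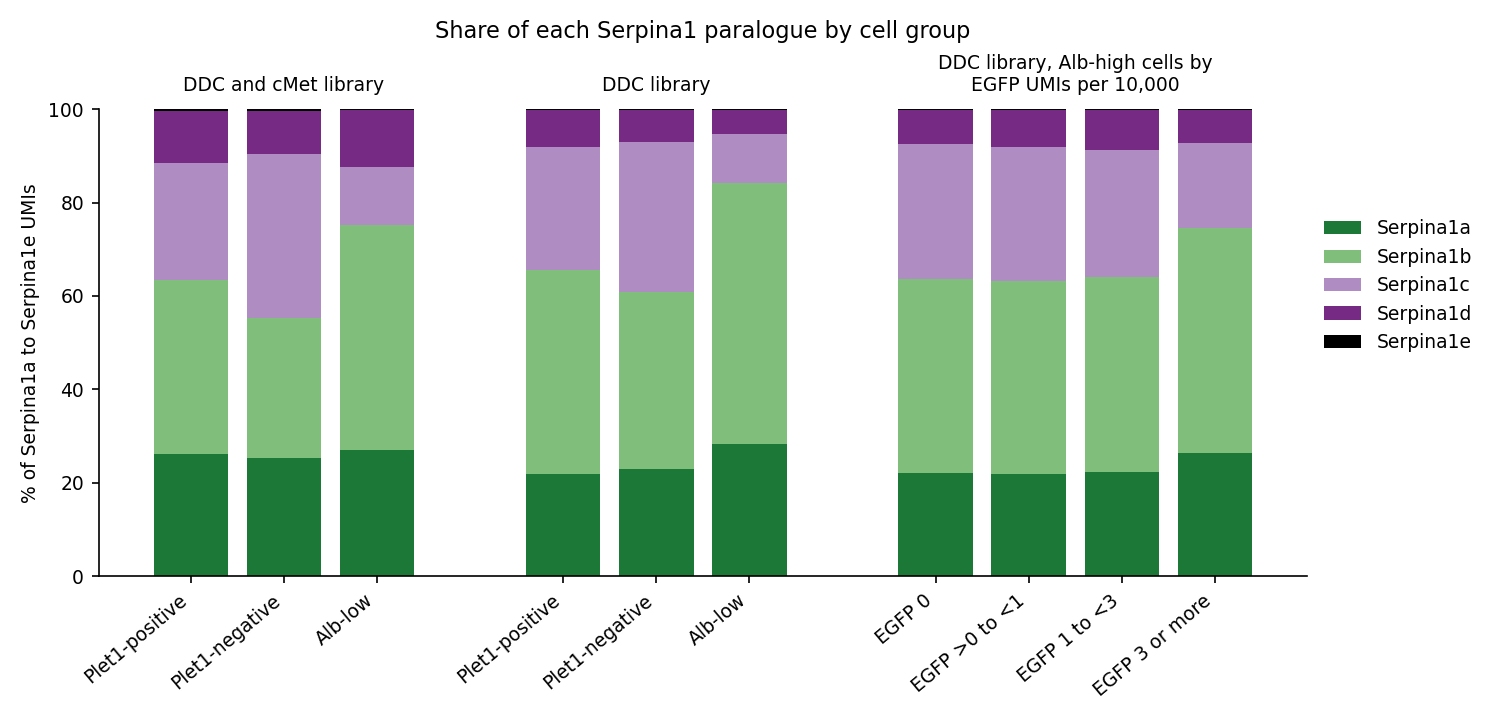
Share of each paralogue in the summed Serpina1a to Serpina1e UMIs (percent, stacked to 100) in Plet1-positive, Plet1-negative and Alb-low cells of the DDC and cMet library and of the DDC library, and over the 4 EGFP bins of Alb-high DDC library cells. Serpina1c is smallest in Alb-low cells, 12.4% and 10.5%, where Serpina1b is largest, 48.2% and 55.8%.

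Hepatocytes differ along the lobule, from the central vein to the portal tract. A score of 8 pericentral against 8 periportal genes placed the Alb-high cells of each library in 3 equal bins, pericentral, middle and periportal. The bins are ranks within a library. The pericentral bin began at a score of -1.32 in the DDC and cMet library and -1.24 in the DDC library, where the periportal sum is the larger. Between the pericentral and the periportal bin, 0 members passed 2-fold in the DDC and cMet library, where 2.29% of 11947 genes were higher and 2.5% lower. In the DDC library 1 was higher and 1 lower, against 2.91% and 4.37% of 11477 genes. Serpina3m had log2 ratios of 0.78 and 1.06 in the 2 libraries, and Serpina7 of -0.04 and -1.26. Among Plet1-negative cells of the DDC library, binned anew, Serpina3m had -0.18 and Serpina7 0.71, so neither call was made there and both signs turned. Serpina1c had -0.82 and -0.06, and Serpina3k -0.55 and 0.52, so these values differed between the libraries.

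The bins of the DDC library differed in Plet1: 252 of 628 pericentral cells were Plet1-positive, against 461 of 629 periportal cells. Day 0 and treated mice may also be spread unequally over the bins and Plet1 groups, which cannot be told apart. Within Plet1-negative cells, Serpina1c stood at 34.5, 38.2 and 70.8 UMIs per 10000 in the pericentral, middle and periportal bins of the DDC and cMet library, and at 27.8, 32.5 and 59.9 in the DDC library. Serpina3k stood at 27.5, 30.8 and 48.3, and at 15.8, 17.9 and 31.6. Both were thus highest in the periportal bin of Plet1-negative cells in each library. Within Plet1-positive cells, Serpina1c stood at 26.4, 27.4 and 23.4, and at 23.2, 23.4 and 20.4. Serpina3k stood at 25.6, 21.5 and 16.9, and at 13.4, 10.9 and 6.70, so Serpina3k had the opposite order there.

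The carriers were highest periportally in Plet1-positive cells and lowest there in Plet1-negative cells, though the middle and periportal intervals of Serpina7 met in Plet1-negative cells of the DDC and cMet library. In Plet1-positive cells Serpina7 stood at 0.772, 0.951 and 1.30 UMIs per 10000 from pericentral to periportal in the DDC and cMet library, and at 2.10, 2.69 and 4.70 in the DDC library. In Plet1-negative cells it stood at 0.353, 0.148 and 0.142, and at 1.01, 0.858 and 0.606. Serpina6 stood at 2.81, 4.79 and 6.37, and at 1.18, 1.58 and 2.50 in Plet1-positive cells, and at 3.73, 4.03 and 3.03, and 1.28, 1.22 and 0.707 in Plet1-negative cells. Biliary or progenitor markers in Plet1-positive cells stood at 38.8, 87.8 and 68.7, and at 99.9, 173 and 223, over the same bins; their part in these orders was not tested.

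**Figure D4:**
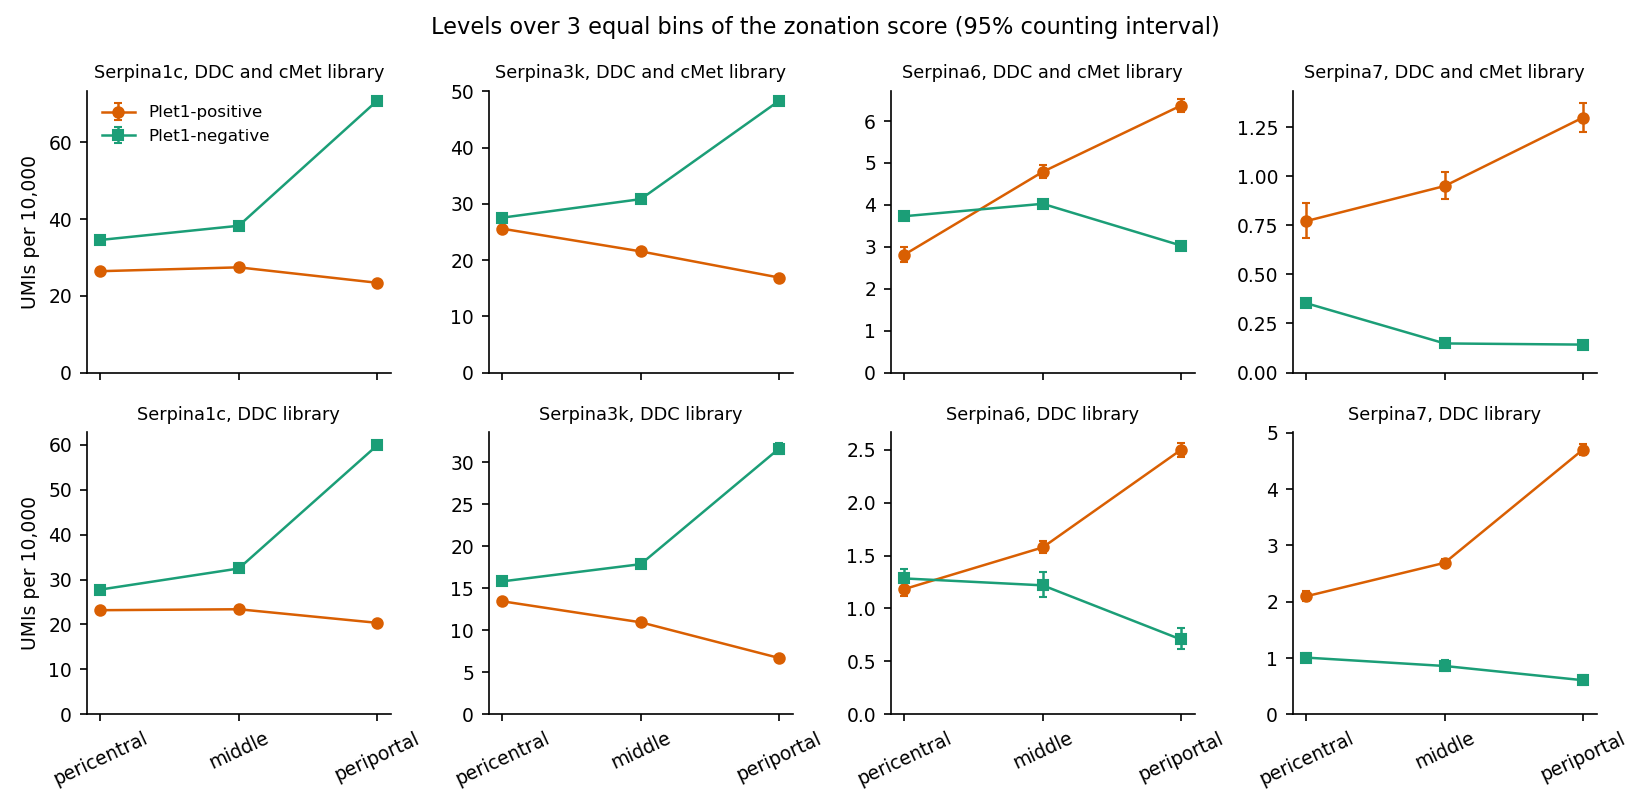
Level of Serpina1c, Serpina3k, Serpina6 and Serpina7 in UMIs per 10000 (vertical axes from 0, differing between panels) over the pericentral, middle and periportal bins of Alb-high cells, for Plet1-positive (orange) and Plet1-negative (green) cells, DDC and cMet library above and DDC library below, with 95% counting intervals. Serpina1c and Serpina3k of Plet1-negative cells are highest in the periportal bin, 70.8 and 48.3 in the upper row and 59.9 and 31.6 in the lower, and Serpina7 of Plet1-positive cells is also highest there, 1.30 and 4.70.

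Serpin UMIs in non-epithelial cells were set against free RNA, the hepatocyte transcripts that leak into every droplet. The measure was a member's level over 11 abundant hepatocyte genes such as Ttr and Apoa1, relative to the same ratio in Alb-high cells, so that free RNA of Alb-high make-up gives about 1. Serpina3n stood at 6.10 (5.36 to 6.91) in 274 endothelial cells and 12.8 (11.2 to 14.7) in 85 stellate cells or fibroblasts of the DDC and cMet library. In the DDC library it stood at 6.05 (4.41 to 8.10) in 65 endothelial cells and 9.18 (7.63 to 10.96) in 27 stellate cells or fibroblasts. In macrophages it stood at 1.24 (1.10 to 1.39) and 2.17 (1.92 to 2.43). Serpina3n thus exceeded the free RNA measure most in the vascular and stromal classes, where its levels were 0.868 and 1.48 UMIs per 10000 in the DDC and cMet library and 0.871 and 1.89 in the DDC library, next to 2.44 and 1.86 in Alb-high cells.

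Serpina3k stood near 1 in all 3 classes of the DDC and cMet library. It had 0.947 (0.914 to 0.982) in macrophages, an interval just below 1. In endothelial cells it had 1.004 (0.922 to 1.09) and in stellate cells or fibroblasts 1.003 (0.876 to 1.14). In the DDC library it stood at 0.681 (0.627 to 0.738) in macrophages, 1.11 (0.832 to 1.45) in endothelial cells and 0.289 (0.187 to 0.426) in stellate cells or fibroblasts, so it was below 1 in 2 of those classes. Serpina1b stood at 2.23 in the stellate or fibroblast class of the DDC and cMet library and 3.502 in that of the DDC library. Serpina1a reached 5.10 in the stellate or fibroblast class of the DDC library, 27 cells, which also held 2.55 EGFP UMIs per 10000. Without cells at 1 or more Sox9 or EGFP UMIs per 10000, a restriction chosen after these values were seen, 22 cells remained and Serpina1a stood at 1.05 (0.733 to 1.46), while Serpina1b stood at 2.54 (2.16 to 2.97) and Serpina3n at 36.1 (29.7 to 43.6). In the DDC and cMet library, where EGFP was not counted, the restriction used Sox9 alone. There 84 cells remained, with Serpina1b at 2.19 and Serpina3n at 12.5. Under the restriction by Sox9 or EGFP, Serpina3k in the DDC library stood at 0.971 (0.889 to 1.06) in 409 macrophages. In the 22 stellate cells or fibroblasts of that library it stood at 1.07 (0.660 to 1.63), so both intervals then held 1.

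**Figure D5:**
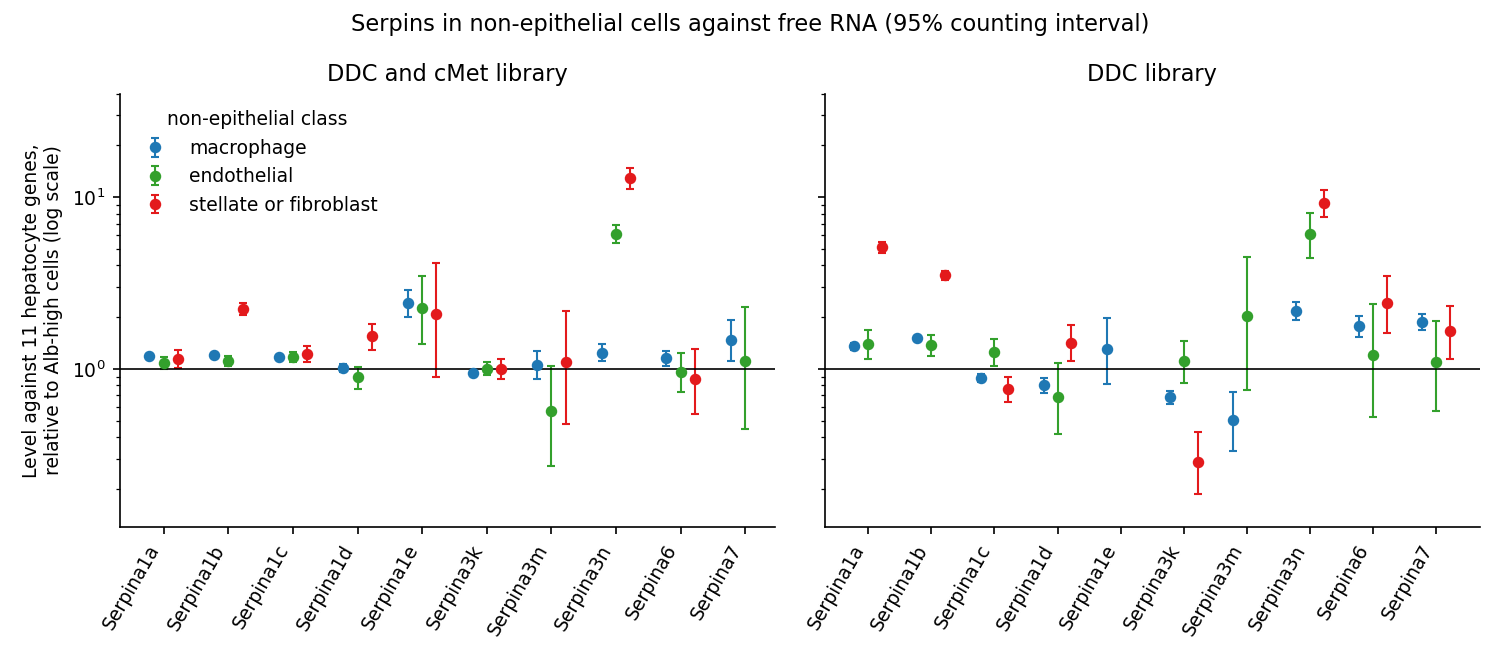
Level of each serpin over 11 hepatocyte genes in macrophages, endothelial cells and stellate cells or fibroblasts, relative to Alb-high cells (log axis; the line at 1 is free RNA of Alb-high make-up), DDC and cMet library left and DDC library right, with 95% counting intervals; points with under 3 UMIs are not drawn. Serpina3n stands highest in both panels, at 12.8 and 9.18 in the stellate or fibroblast class.

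Other genes of the serpin system were counted from fixed lists, again against 2-fold and 50 UMIs. Of the other serpins, 3 of 19 tested were higher and 2 lower in Plet1-positive than in Plet1-negative cells of the DDC and cMet library, and 4 and 1 of 16 in the DDC library. Over all genes 9.17% were higher and 2.86% lower in the DDC and cMet library, and 7.21% and 2.86% in the DDC library. Serpinb6b, an intracellular clade B serpin, stood at 0.508 UMIs per 10000 in Plet1-positive and 0.0765 in Plet1-negative cells of the DDC and cMet library, and at 0.854 and 0.177 in the DDC library. Its relative Serpinb6a stood at 1.56 and 0.422, and at 2.28 and 0.826. These 2 clade B genes therefore lay on the side of Serpina7. The list as a whole was split, with 8 of 19 tested above 0 in the DDC and cMet library and 9 of 16 in the DDC library. Its median log2 ratios were -0.08 and 0.05, against 0.29 and 0.18 over all genes. Serpinh1, the collagen chaperone HSP47, was the other serpin most enriched outside Alb-high cells, with log2 ratios of -6.99 and -6.73 for Alb-high over non-epithelial cells.

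Acute-phase genes, which the liver induces in inflammation, were 0 of 21 higher and 8 of 21 lower in the highest EGFP bin, where 9.29% of all genes were higher and 5.5% lower, with a median of -0.61 against 0.24 over all genes. Saa2 had a log2 ratio of -3.31, Saa1 of -3.00, Orm1 of -1.90 and Saa3 of -1.84, on the same side as Serpina3n and Serpina3k. Between the libraries 1 of 21 was higher and 2 lower, near the 5.84% and 12.6% of all genes: Lcn2, a siderophore-binding protein gene, had -2.19, Orm2 -1.13 and Saa4 1.53.

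Genes of antitrypsin folding and secretion were mostly within 2-fold. Of 25 tested, 0 were higher and 1 lower between the libraries, against 5.84% and 12.6% of all genes, and 0 higher and 2 lower over the EGFP bins, against 9.29% and 5.5%. The 2 were Derl3 at -3.28 and Edem1, which draws misfolded glycoproteins into degradation, at -1.28. Of the target proteases, 2 of 9 tested were higher and 0 lower in the highest EGFP bin, against 9.29% and 5.5% of all genes. Plat, tissue plasminogen activator, had 1.77 and St14, a membrane serine protease, 1.04. They were the only 2 of the 9 above 0, and the list's median was -0.36, against 0.24 over all genes. Mmp12, the macrophage elastase that cleaves antitrypsin, was almost entirely non-epithelial, at 0.0640 UMIs per 10000 in Alb-high and 8.91 in non-epithelial cells of the DDC and cMet library and at 0.0263 and 5.11 in the DDC library. Of hormone carriers and their enzymes, 1 of 13 was higher and 1 lower between the libraries, near the 5.84% and 12.6% of all genes: Hsd11b1, which regenerates active glucocorticoid, had 1.64 and stood at 3.67 and 1.18 UMIs per 10000, and Igfbp1 had -1.34.

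The genes whose levels were most like each member's were taken over the 12 groups given by library, Plet1 and zonation bin, among 2483 genes, as Pearson's r of log2 levels with a pseudocount of 0.1. The groups share libraries and depth, so r is a description. For Serpina1c these were Nudt7 (0.97), Uroc1 (0.97) and C8b (0.96), and for Serpina3k Pcx (0.98), Igf1 (0.97) and Tat (0.97). For Serpina7 they were Arpc3 (0.98), Elof1 (0.98) and Supt4a (0.98), and for Serpina6 Eif4b (0.98), Klf13 (0.97) and Rb1cc1 (0.96). Serpina1b had the lowest best match, Sco2 at 0.82, followed by Sel1l at 0.80 and its own paralogue Serpina1c at 0.79. The first match was Ces3b (0.97) for Serpina1a, Pigr (0.95) for Serpina1d, Tdo2 (0.98) for Serpina1e, Igfbp2 (0.88) for Serpina3m and Hopx (0.93) for Serpina3n.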

How the data were processed

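Droplet single-cell RNA was measured in 2 libraries, 1 per condition. The authors deposited UMI counts, unnormalized whole numbers for each barcode and gene, with text lists of genes and barcodes. Per the file headers Cell Ranger 5.0.1 was used, whereas version 6.0.1 and build mm10 stand in the submitters' processing notes; this was not settled. The sources used here do not say how barcodes were selected or how reads of near-identical genes were assigned.

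Members and gene lists were chosen with earlier results of these data known. UMIs were summed over the kept cells of a group and divided by the group's total, times 10000. Scaling to 11 hepatocyte genes instead moved the log2 ratio of every gene by -4.21 and -3.70 for Alb-high over non-epithelial cells of the DDC and cMet library and the DDC library, -0.17 between libraries, 0.22 and 0.25 for Plet1 in the DDC and cMet library and the DDC library, and 0.45 for EGFP. Sums carry exact Poisson intervals, ratios exact conditional binomial intervals and shares Clopper-Pearson intervals, at 95%, covering counting error alone. A member or gene counts as called at 2-fold with at least 50 UMIs in the 2 cell groups; with 1 library per condition there is no p-value. The zonation score is log2((P + 1)/(Q + 1)) of the 2 marker sums. The named genes were all 10 members, the list members with the largest absolute ratio (up to 4 per list and comparison) and the 3 most alike genes per member. Results for 1 motif and 1 gene list are not reported here. Doublets were not called; Alb-high cells with another class's markers were left out. Alternatives covered the cell filter, the Alb, Plet1 and EGFP limits, thinning to 2000 UMIs, equal weight per cell, totals, scaling to 11 hepatocyte genes, subtraction of the non-epithelial level, the fold and the zonation score. Computation used Biopython 1.88, matplotlib 3.10.9, pandas 2.3.3, scipy 1.17.1, numpy 2.4.6 and Python 3.11.15; interval code was tested on simulated counts.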

Additional observations from a re-analysis of the deposited data

Results flagged for a closer look

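For 3 members the pericentral over periportal log2 ratio had opposite signs in the 2 libraries, with intervals on opposite sides of 0; the difference between libraries was not tested. Serpina1a had -0.34 in the DDC and cMet library and 0.16 in the DDC library. Serpina1b had -0.29 and 0.071 in those libraries, and Serpina3k -0.55 and 0.52. In Plet1-negative cells alone, with bins drawn anew, all 3 were negative in both libraries, so the opposite signs were lost: Serpina1a had -0.46 and -0.42, Serpina1b -0.35 and -0.42, and Serpina3k -0.80 and -0.72. They were also lost in the DDC library for Serpina1a with Alb at 100 or more (-0.020) and with scaling to the hepatocyte genes (-0.037), and for Serpina1b with Alb at 100 or more (-0.070), with that scaling (-0.13) and, just below 0, after thinning; Serpina3k kept its positive value there under these 3 settings, 0.24, 0.32 and 0.36.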

How the results depend on the processing

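Of 220 counts of members past 2-fold recomputed under alternatives, 176 stayed within 1.5 times and 44 moved, given here with higher before lower calls. For Plet1 in the DDC library the lower count was 0 with the stricter cell filter, with Alb at 100 or more, with scaling to the 11 hepatocyte genes and with positivity at 1 Plet1 UMI, and 3 with positivity at 2 Plet1 UMIs per 10000. For Plet1 in the DDC and cMet library it was 1 with the non-epithelial level subtracted and 2 with 2 Plet1 UMIs per 10000. For EGFP the counts were 1 and 5 with Alb at 25 or more and in cells of any Alb, 1 and 1 for bins of 1 or more over 0, and the higher count was 1 after thinning, with totals without mitochondrial, ribosomal and member genes, and in Plet1-positive cells. For zonation in the DDC library the higher count was 0 with Alb at 100, after thinning, with equal weight per cell and with hepatocyte gene scaling, and the lower count was 2 with that scaling, with subtraction, with 5 bins and without Cyp2e1 and Cyp2f2; in Plet1-negative cells both were 0. For zonation in the DDC and cMet library both were 1 with 5 bins and in Plet1-negative cells, and the lower count was 1 with hepatocyte gene scaling. At 1.5-fold the counts were 6 higher for the library, 2 and 3 for Plet1 in the DDC library, 2 lower in the other, 5 lower for EGFP, 2 lower for zonation in the DDC library, and 1 and 1 for zonation in the DDC and cMet library. In Plet1-negative cells the library's higher count was 1. The cause was not tested.

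Scaling to the 11 hepatocyte genes, which by construction removes the hepatocyte excess, gave, for Alb-high over non-epithelial cells, 0 higher and 2 lower calls with cMet and 0 and 1 without. In the DDC and cMet library the log2 ratios were then -0.24 for Serpina1a, -0.35 for Serpina1b, -0.24 for Serpina1c, -0.047 for Serpina1d, -1.24 for Serpina1e, -0.021 for Serpina3m, -1.33 for Serpina3n, -0.20 for Serpina6 and -0.45 for Serpina7. In the DDC library they were -0.73 for Serpina1a, -0.77 for Serpina1b, -0.35 for Serpina1e, -1.52 for Serpina3n, -0.82 for Serpina6 and -0.82 for Serpina7. In Plet1-negative cells of the DDC library the zonation ratio was -0.18 for Serpina3m and 0.71 for Serpina7.

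No paired analysis was possible because each condition has 1 library. Depth limits the scarce members most: Serpina1e rests on 26 non-epithelial UMIs in the DDC library and Serpina3m on 38.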
